A study of Mus musculus with 20 samples.

Results

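The lysosome is the acidic compartment in which a cell breaks down what it takes up from outside and what it delivers from its own cytoplasm. The 56 genes described here encode its working parts. They were taken by name from a list drawn up by function, with earlier results of these data known. They comprise 30 hydrolases (13 cathepsins and other proteases, 10 glycosidases, 3 sulfatases and 4 lipid hydrolases), 4 activator and lipid-binding proteins, 7 membrane proteins, and 15 subunits and accessory proteins of the V-ATPase, the proton pump that acidifies the compartment. All 56 were found among the 32285 genes of the expression table. Hydrolases are made in the endoplasmic reticulum, mostly tagged with mannose 6-phosphate in the Golgi, and work at low pH. The V-ATPase joins a V1 sector, which splits ATP in the cytosol, to a V0 sector in the membrane, which carries the protons. Many genes of both kinds carry E-box-like elements near their start that the transcription factors TFEB and TFE3 bind when nutrients are short, and the same membrane carries the machinery by which mTORC1 reads amino acids.

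Transcript levels came from 20 libraries of immortalized primary murine cancer-associated fibroblasts (CAFs), the fibroblasts of tumour stroma, in a study of pancreatic cancer. There were 4 groups with 5 libraries each, and all cells were treated for 32 h: 0.2 mM glutamine with 25 uM EIPA, 0.2 mM glutamine with the DMSO vehicle, 4 mM glutamine with DMSO and 25 pg/mL IL-1a, and 4 mM glutamine with DMSO. The sample titles name DMSO in every group except the one with EIPA. EIPA, related to amiloride, inhibits sodium-proton exchangers and serves as a blocker of macropinocytosis, in which cells gulp extracellular fluid and pass it to lysosomes; IL-1a is an inflammatory cytokine. EIPA stands in uM in the sample titles and in mM in the treatment protocol; the titles' dose is given here. No strain, genotype, donor animal, immortalization method or clone is named in the labels, which also do not say whether the 5 replicates were separate cultures. The p-values therefore measure the spread between these samples alone.

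Levels are in TPM, which is scaled for transcript length and to a fixed total, so the sequencing depth is unknown. Of the 56 genes, 53 reached at least 1 TPM in at least 5 libraries and were tested. Ctsh, Ctsk and Ctss did not. Ctsk, the collagen-degrading cathepsin of osteoclasts, averaged 0.298 ± 0.104 TPM with EIPA and 0.108 ± 0.051 TPM with vehicle at 0.2 mM glutamine (SD, n = 5), and 0.196 ± 0.084 TPM with IL-1a and 0.234 ± 0.121 TPM in the 4 mM vehicle group. Ctsh, an aminopeptidase, averaged 0.064 to 0.18 TPM over the 4 groups, and Ctss, a cathepsin of antigen-presenting cells, was listed at 0 in all 5 libraries of the EIPA group and of the 4 mM vehicle group. Median coefficients of variation of the 53 tested genes over the libraries of a group were 7.76% with EIPA, 5.82% with vehicle at 0.2 mM, 9.32% with IL-1a and 6.66% in the 4 mM vehicle group.

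The third principal component, with 4.07% of the variance, set IL-1a replicates 1 and 5 and the 4 mM vehicle replicate 5 apart from the other libraries, and results that rest on these are also given without them. The fibroblast label held for 10 of 12 markers, led by Vim (2415 TPM over all libraries) and Col1a1 (1827 TPM), while Fap and Lum were below the filter. Summed over the 12, these markers were at 2228 to 2526 TPM with EIPA and 3537 to 4226 TPM with vehicle at 0.2 mM, and at 8019 to 10326 TPM with IL-1a and 9530.1 to 10597 TPM in the 4 mM vehicle group. Macrophages, which are rich in lysosomes, were little seen: 3 of 12 markers passed the filter, Adgre1 and Tyrobp were at 0 in all 20 libraries, and Ptprc averaged 0.0005 TPM. The summed macrophage markers, mostly Cd14, were 15.4 to 18.6 TPM with EIPA and 6.56 to 8.77 TPM with vehicle at 0.2 mM, and 14.4 to 31.1 TPM with IL-1a and 14.3 to 18.6 TPM in the 4 mM vehicle group. Osteoclast markers summed to 5.45 to 7.57 TPM with EIPA, 3.71 to 5.64 TPM with vehicle at 0.2 mM, 14.54 to 25.6 TPM with IL-1a and 14.99 to 19.6 TPM in the 4 mM vehicle group, with Calcr and the osteoclast pump subunit Atp6v0d2 at 0 everywhere. Endothelial markers summed to at most 10.9 TPM in any library. Epithelial markers, nearly all Krt19, summed to 89.4 to 120.2 TPM with EIPA and 134 to 206 TPM with vehicle at 0.2 mM, and to 168 to 365 TPM with IL-1a and 187 to 399 TPM in the 4 mM vehicle group. Mitochondrially encoded mRNAs took 5.69% of TPM with EIPA, 8.87% with vehicle at 0.2 mM, 10.0% with IL-1a and 10.4% in the 4 mM vehicle libraries. The part of these marker sums in the results on lysosomal genes was not tested. In bulk RNA, fewer cells of a type and less RNA per cell cannot be told apart.

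**Figure D1:**
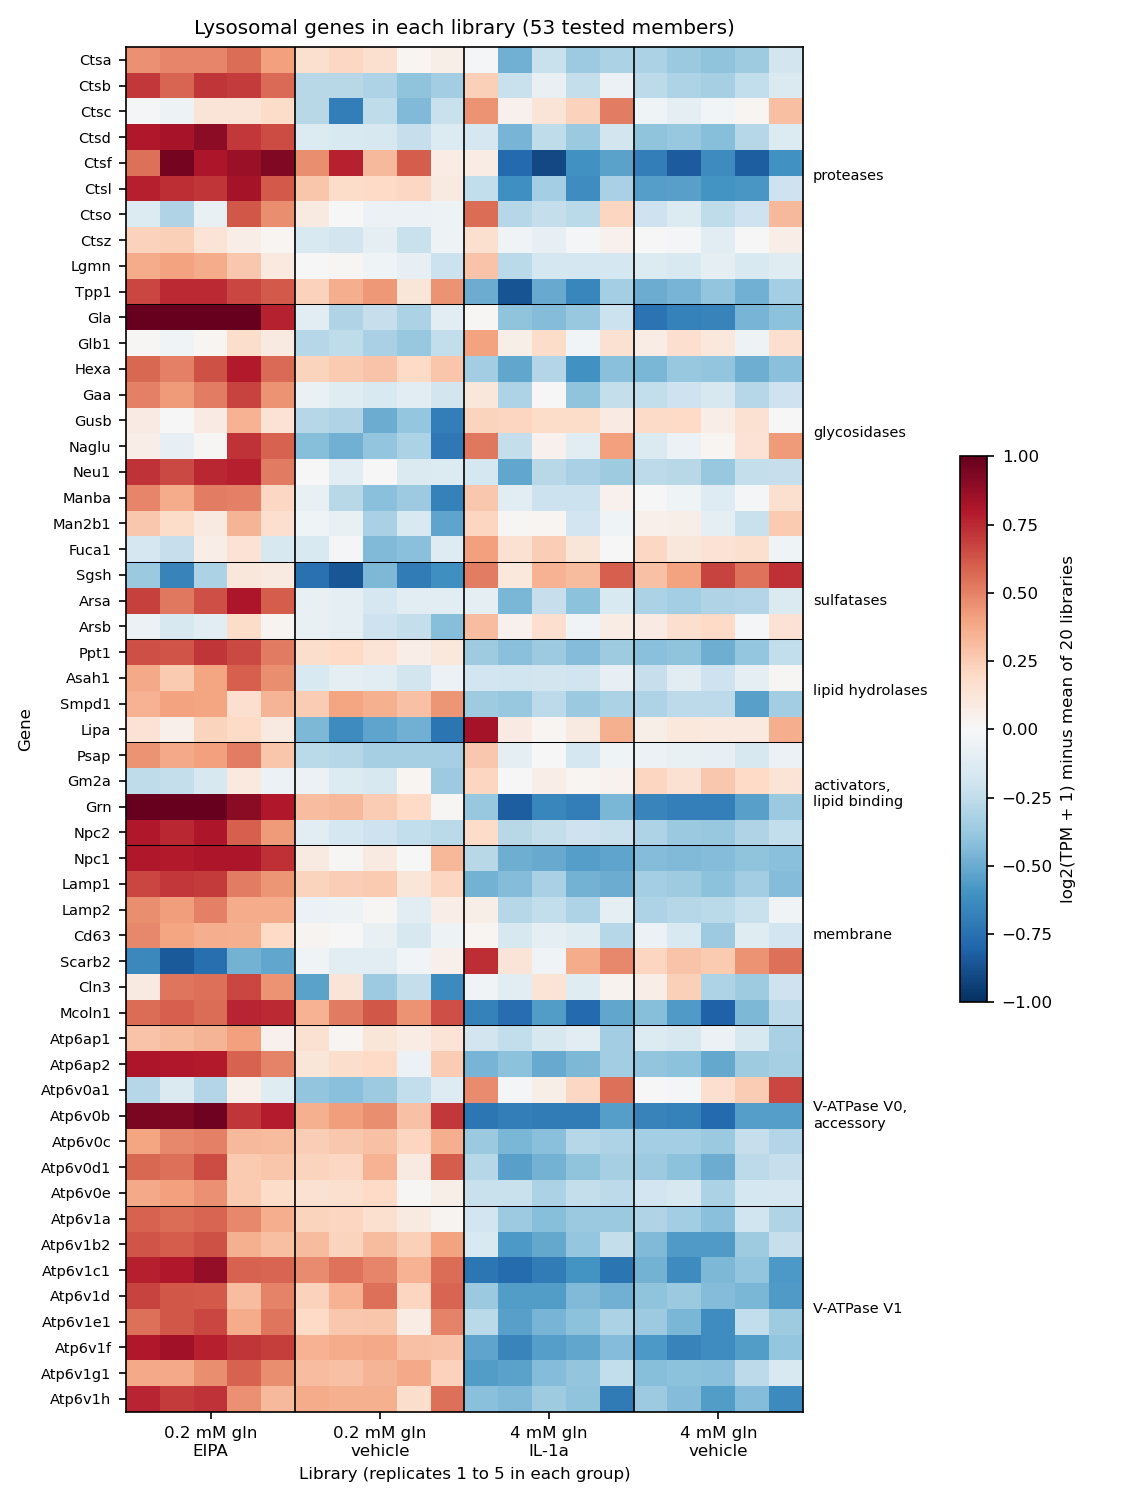
Level of each of the 53 tested lysosomal genes (rows, by class) in each of the 20 libraries (columns, replicates 1 to 5 in each group). Colour gives log2(TPM + 1) minus the gene's mean over the 20 libraries, with values beyond 1 in either direction shown at the end of the scale. The EIPA columns are the reddest in most rows, the 0.2 mM vehicle columns lie above the 4 mM vehicle columns throughout the V-ATPase block except in the Atp6v0a1 row, and Scarb2 is bluest with EIPA.

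The promoters of these genes were searched for the E-box core CACGTG and for its 7-letter form TCACGTG, on both strands. RefSeq promoters of GRCm38.p6, which run from 250 bases before the gene start to 50 after it, were matched by symbol for 48 of the 56 genes (54 entries). No entry matched Asah1, Atp6v1b2, Atp6v1c1, Atp6v1g1, Atp6v1h, Ctsb, Ctsh or Npc1. The 7-letter form was present in 16 of the 48 genes, or 33.3%, and in 29.6% of their 54 promoters, against 6.09% of the 12343 promoters of all tested genes and 3.77% of all 32851 promoters in the table. The core alone, which includes those matches, was present in 18 of the 48 genes and 33.3% of their promoters, against 10.2% of the promoters of tested genes. Of the matched genes, the form was held by 3 of 11 proteases, 4 of 10 glycosidases, 2 of 3 sulfatases, 3 of 6 membrane proteins, 3 of 7 V0 and accessory genes and 1 of 4 V1 genes. None of the 3 lipid hydrolases and none of the 4 activator and lipid-binding proteins had it in this window. A match is a run of letters and not a measured binding site.

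The 4 promoters below belong to the genes with the largest change with EIPA among those holding the 7-letter form, each shown 5′ to 3′ on the gene's own strand with that form (and an adjoining A or T that completes it on the other strand) in capitals. Gla has 2 matches, 227 and 194 bases before its start; Ctsd has 2, at 245 and 98; Cln3 has 2, at 149 and 121; Arsa has 1, at 16. These distances run to the first base of CACGTG and count from the RefSeq start, which can differ from the gene start of GENCODE M21. The Cln3 promoter lies inside the GENCODE span of that gene, chr7:126571207-126585817. The Ctsd match at 98 also lies inside the GENCODE span of its gene, chr7:142375911-142388038, while the match at 245 lies upstream of it. All 4 genes lie on the minus strand, with positions in GRCm38.p6.
Gla, chrX:134600956-134601255: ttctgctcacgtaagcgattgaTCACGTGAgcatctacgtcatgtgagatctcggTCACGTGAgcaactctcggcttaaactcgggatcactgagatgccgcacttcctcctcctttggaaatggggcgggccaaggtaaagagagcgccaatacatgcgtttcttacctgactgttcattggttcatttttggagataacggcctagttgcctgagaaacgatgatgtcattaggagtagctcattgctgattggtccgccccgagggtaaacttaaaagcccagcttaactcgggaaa
Ctsd, chr7:142387778-142388077: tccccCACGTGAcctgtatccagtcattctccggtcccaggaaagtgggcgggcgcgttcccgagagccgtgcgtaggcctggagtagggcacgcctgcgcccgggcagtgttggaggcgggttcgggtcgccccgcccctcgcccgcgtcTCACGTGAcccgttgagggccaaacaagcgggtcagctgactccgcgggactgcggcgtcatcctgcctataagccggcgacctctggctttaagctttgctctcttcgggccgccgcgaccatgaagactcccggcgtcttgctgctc
Cln3, chr7:126583187-126583486: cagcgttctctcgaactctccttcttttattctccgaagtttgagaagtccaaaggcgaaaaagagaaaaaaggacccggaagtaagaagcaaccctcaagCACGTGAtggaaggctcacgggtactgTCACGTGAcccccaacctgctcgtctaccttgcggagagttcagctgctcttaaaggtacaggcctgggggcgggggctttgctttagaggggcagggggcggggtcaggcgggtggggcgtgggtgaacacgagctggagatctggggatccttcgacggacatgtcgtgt
Arsa, chr15:89477375-89477674: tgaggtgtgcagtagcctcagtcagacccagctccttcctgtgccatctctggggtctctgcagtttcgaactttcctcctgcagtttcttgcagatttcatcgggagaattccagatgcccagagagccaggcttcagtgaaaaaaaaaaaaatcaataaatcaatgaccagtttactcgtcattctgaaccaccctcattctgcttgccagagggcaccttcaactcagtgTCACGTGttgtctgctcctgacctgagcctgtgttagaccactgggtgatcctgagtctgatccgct

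All 4 V-ATPase genes that hold the form are shown with the bases around the match nearest the RefSeq start. The pump can thus be set beside the hydrolases. Coordinates are of GRCm38.p6. The Atp6v0e and Atp6v1a windows lie inside the GENCODE M21 spans of those genes, chr17:26663231-26699647 and chr16:44085402-44139705.
Atp6v0b, chr4:117887332-117887358 (minus): ggtcggcgcaTCACGTGcgccggtcag
Atp6v0d1, chr8:105566051-105566077 (minus): ctactgcggTCACGTGAgacgcggtgc
Atp6v0e, chr17:26676388-26676414 (plus): agcgcgccgaTCACGTGAgcctctgtt
Atp6v1a, chr16:44139374-44139400 (minus): ttttttaaaTCACGTGAtaggcttaac

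**Figure D2:**
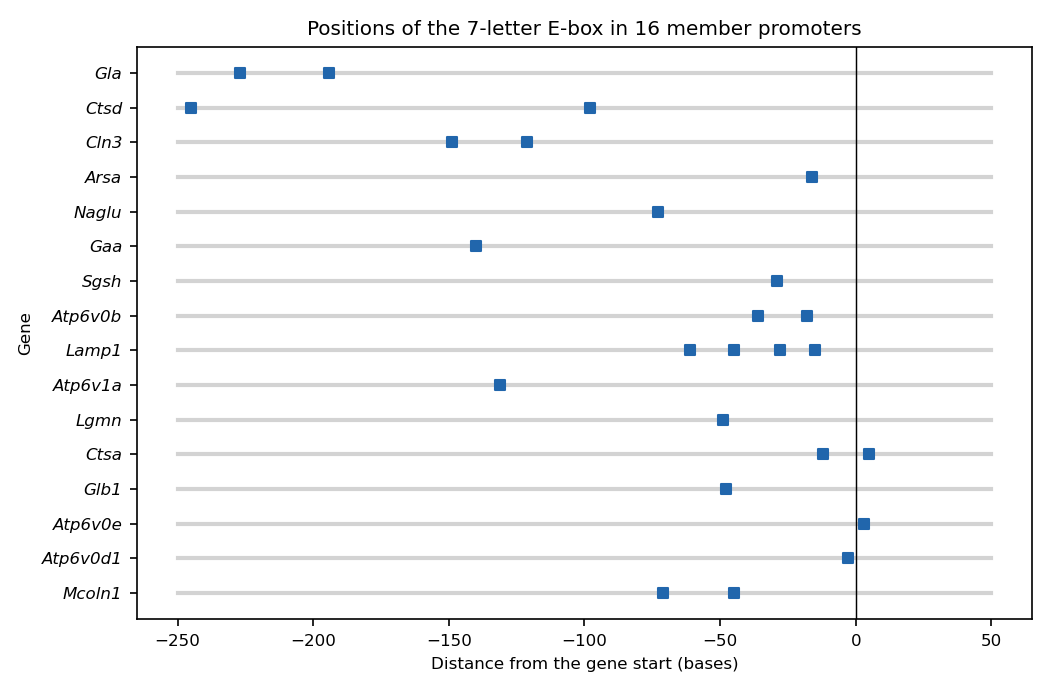
Position of each 7-letter E-box (squares) along the 300 bases of RefSeq promoter (grey lines) of the 16 genes that hold it. Distances are in bases from the RefSeq gene start. Genes run from the largest to the smallest log2 fold change with EIPA, top to bottom. Lamp1 has 4 matches between 61 and 15 bases before its start, and the lowest row, Mcoln1, holds 2 matches although its change with EIPA did not pass the test.

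Treatment with EIPA was set against its vehicle, both at 0.2 mM glutamine, to learn how CAFs short of glutamine respond to this inhibitor. Transcript levels do not measure macropinocytosis, and its part in the changes was not tested. Lysosomal transcripts were higher with EIPA across the classes. Of the 53 tested genes, 41 rose and 1 fell, beside 27.4% of all tested genes that rose and 21.1% that fell, or 48.5% called in all (limma, adjusted p under 0.05 over 12350 genes), and 11 were not called. The groups did not overlap in 35 of the 53 genes, 34 of them higher with EIPA, beside 34.6% of all genes. The median log2 fold change was 0.39 over the 53 genes and 0.02 over all genes. The genes were chosen with earlier results of these data known, so these counts are no independent test of the list. Other lysosomal genes outside the 56 are counted below. The median was 0.45 in the 27 tested hydrolases, of which 23 rose, and 0.22 in the 15 V-ATPase genes, of which 10 rose; this difference was not tested. Leaving out mitochondrially encoded genes, 37 of the 53 rose and 1 fell, while the shares of all genes given above are those with them. The summed fibroblast markers were lower and the summed macrophage markers higher with EIPA, in the ranges given above. Of the 12 macrophage genes, 3 passed the filter, and Adgre1 and Tyrobp were at 0. Cd14 was at 15.7 ± 0.93 TPM with EIPA and 7.14 ± 0.82 TPM with vehicle. Csf1r was at 0.51 ± 0.16 TPM with EIPA and 0.046 ± 0.034 TPM with vehicle (SD, n = 5 each). These Csf1r means are under 1 TPM and may rest on few reads. Cd68, a lysosomal membrane protein abundant in macrophages and not among the 56 genes, was at 7.85 ± 0.67 TPM with EIPA and 2.35 ± 0.32 TPM with vehicle, a log2 fold change of 1.40 ± 0.10 (limma adjusted p = 8.7e-10), above that of any of the 53 genes. Cd14, Csf1r and Cd68 were named after their values were seen, and values of the other macrophage genes are not given here. Positions of the members that stand out, in mm10 by the GENCODE M21 annotation, are as follows. Gla (ENSMUSG00000031266) spans chrX:134588149-134601125 (minus strand), Ctsb (ENSMUSG00000021939) chr14:63122462-63145923 (plus), and Ctsd (ENSMUSG00000007891) chr7:142375911-142388038 (minus). Scarb2 (ENSMUSG00000029426) spans chr5:92441314-92506833 (minus), Sgsh (ENSMUSG00000005043) chr11:119343425-119355536 (minus), and Atp6v0b (ENSMUSG00000033379) chr4:117884326-117887333 (minus).

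The proteases cut the proteins that reach the lysosome. Of 10 tested, 9 rose and Ctso, a cysteine cathepsin at about 2 TPM, was not called. Ctsb, a cysteine protease, was at 632, 579.6, 636, 629 and 573 TPM with EIPA, against 318, 318, 312, 293 and 304 TPM with vehicle. Its lowest EIPA library was far above its highest vehicle library (log2 fold change 0.98 ± 0.07, limma adjusted p = 4.1e-10), and the means were 609.9 ± 31.0 and 309 ± 10.7 TPM (SD, n = 5 each). Ctsd, the main aspartic protease of the lysosome, was at 746, 755, 795, 699 and 672 TPM with EIPA, against 388, 384, 382, 363 and 389 TPM with vehicle. The groups did not overlap here either (log2 fold change 0.94 ± 0.06, limma adjusted p = 2.1e-10). Ctsl, another cysteine protease and the protease with the highest level, was at 1134, 1102, 1087, 1179 and 1014 TPM with EIPA, against 804, 751, 758, 765 and 705 TPM with vehicle, again without overlap (log2 fold change 0.54 ± 0.08, limma adjusted p = 8.7e-06). The other called proteases rose by 0.28 (Ctsz) to 0.45 (Ctsc). Ctsf was called with overlapping groups (log2 fold change 0.37 ± 0.15, limma adjusted p = 0.042), and this call was lost under 13 of 30 other settings.

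The glycosidases take sugars off glycoproteins, glycolipids and glycosaminoglycans, and 9 of 10 rose, Fuca1, the fucosidase, being the one not called. Gla, alpha-galactosidase A, which clears globotriaosylceramide, had the largest change of the 53 genes. It was at 55.2, 55.2, 58.4, 56.5 and 42.4 TPM with EIPA, against 22.5, 19.7, 20.6, 19.4 and 22.6 TPM with vehicle. Replicate 5 was the lowest EIPA library and still lay above every vehicle library (log2 fold change 1.31 ± 0.09, limma adjusted p = 8.0e-10). Manba, which removes terminal mannose from N-glycan fragments, was at 37.9, 34.9, 38.5, 38.4 and 31.1 TPM with EIPA, against 25.4, 21.9, 19.9, 20.6 and 16.4 TPM with vehicle. EIPA replicate 5 and vehicle replicate 5 were the lowest of their groups and the groups did not overlap (log2 fold change 0.78 ± 0.10, limma adjusted p = 2.9e-06). Gaa, the acid alpha-glucosidase that degrades glycogen and the glycosidase with the highest level, was at 264, 250.4, 266, 298 and 254 TPM with EIPA, against 178, 170.4, 167, 171 and 164 TPM with vehicle. The lowest EIPA library, at 250.4 TPM, was well above the highest vehicle library, at 178 TPM (log2 fold change 0.64 ± 0.07, limma adjusted p = 5.0e-07). Neu1, the sialidase, rose by 0.77 and Naglu, an enzyme of heparan sulfate breakdown, by 0.73, and Glb1, beta-galactosidase, had the smallest called change of the class, 0.35.

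Sulfatases remove sulfate from glycosaminoglycans and sulfolipids. Arsa, which acts on sulfatide, was at 78.0, 69.8, 75.8, 84.7 and 73.8 TPM with EIPA, against 45.7, 45.1, 42.7, 44.5 and 44.6 TPM with vehicle. The EIPA libraries were all higher (log2 fold change 0.76 ± 0.07, limma adjusted p = 7.8e-09). Sgsh, the heparan N-sulfatase, was at 2.59, 1.92, 2.73, 4.02 and 3.96 TPM with EIPA, against 1.77, 1.57, 2.40, 1.86 and 2.04 TPM with vehicle. EIPA replicates 4 and 5 were highest, replicate 2 lay within the vehicle range, and the change was called at this low level (log2 fold change 0.44 ± 0.14, limma adjusted p = 0.011). Arsb, which acts on dermatan sulfate, was not called (log2 fold change 0.18 ± 0.08, limma adjusted p = 0.056).

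Among the lipid hydrolases, Lipa, the acid lipase that frees cholesterol and fatty acids from lipoprotein lipids, was at 41.9, 39.1, 44.1, 43.4 and 40.3 TPM with EIPA, against 27.4, 24.1, 25.8, 26.8 and 22.3 TPM with vehicle. Asah1, acid ceramidase and the member of this class with the highest level, was at 181, 167, 183, 211 and 192 TPM with EIPA, against 125, 129.8, 128, 122 and 133 TPM with vehicle. Neither gene had overlapping groups (log2 fold change 0.70 ± 0.11, limma adjusted p = 2.9e-05; log2 fold change 0.54 ± 0.05, limma adjusted p = 9.3e-08). Ppt1, which removes palmitate from proteins, rose by 0.50. Smpd1, acid sphingomyelinase, was at 43.4, 45.0, 44.9, 38.1 and 43.1 TPM with EIPA, against 40.6, 44.9, 43.7, 41.7 and 46.4 TPM with vehicle, with interleaved libraries and no call (log2 fold change -0.02 ± 0.06, limma adjusted p = 0.81).

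Most of the activator and lipid-binding proteins hand lipids to the hydrolases or carry them out. Psap, the precursor of the saposins and the highest of this class, was at 956, 912, 929.8, 1002 and 851 TPM with EIPA, against 581, 576, 557, 557 and 556 TPM with vehicle. Grn, which encodes progranulin, was at 1011, 1042, 1035, 934 and 869.7 TPM with EIPA, against 619, 627, 594, 574 and 505 TPM with vehicle. Npc2, which passes cholesterol to Npc1 in the membrane, was at 277, 268, 278, 239.8 and 213 TPM with EIPA, against 147, 139.8, 137, 133 and 131 TPM with vehicle. In all 3 genes the lowest EIPA library, replicate 5, stood above every vehicle library (log2 fold change 0.72 ± 0.06, limma adjusted p = 7.5e-09 for Psap; log2 fold change 0.74 ± 0.08, limma adjusted p = 3.1e-07 for Grn; log2 fold change 0.88 ± 0.08, limma adjusted p = 1.5e-08 for Npc2). Gm2a, the activator that presents GM2 ganglioside to beta-hexosaminidase, was not called (log2 fold change 0.02 ± 0.07, limma adjusted p = 0.88).

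Membrane proteins line, transport across or signal from the lysosome, and here 5 rose, 1 fell and Mcoln1 was not called (log2 fold change 0.13 ± 0.08, limma adjusted p = 0.22). Npc1, the cholesterol exporter, was at 67.4, 67.2, 67.9, 67.8 and 64.1 TPM with EIPA, against 40.9, 38.5, 40.9, 38.2 and 48.5 TPM with vehicle, with vehicle replicate 5 highest of its group and still below the EIPA libraries (log2 fold change 0.68 ± 0.06, limma adjusted p = 1.1e-08). Cln3, a membrane protein lost in a juvenile storage disease, was at 4.65, 6.70, 6.78, 7.40 and 6.22 TPM with EIPA, against 2.65, 4.81, 3.13, 3.49 and 2.41 TPM with vehicle. EIPA replicate 1 lay just below vehicle replicate 2, so the groups overlapped (log2 fold change 0.79 ± 0.14, limma adjusted p = 1.0e-04). Lamp1, a heavily glycosylated coat protein with the highest level of all 56 genes, was at 1639.6, 1683, 1676, 1475 and 1401 TPM with EIPA, against 1206, 1224, 1238, 1124 and 1198 TPM with vehicle, and all EIPA libraries were higher (log2 fold change 0.39 ± 0.05, limma adjusted p = 2.7e-06). Scarb2, or LIMP-2, the receptor that carries glucocerebrosidase to lysosomes, went the other way. It was at 67.1, 58.4, 62.1, 75.7 and 73.1 TPM with EIPA, against 103, 97.7, 97.5, 103 and 109 TPM with vehicle. Every EIPA library was below every vehicle library (log2 fold change -0.60 ± 0.11, limma adjusted p = 1.1e-04), and no setting tried ended this call. Lamp2 and Cd63, also coat proteins, rose by 0.45 and 0.41.

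The pump was described by its sectors. In the V0 sector and accessory proteins 5 of 7 rose, and in the V1 sector 5 of 8. Atp6ap2, an accessory protein also known as the (pro)renin receptor, was at 245, 244, 243, 211 and 197 TPM with EIPA, against 152, 158, 160.3, 134 and 166 TPM with vehicle. Atp6v0b, a proteolipid of the rotor ring, was at 592, 589.8, 607, 506 and 531 TPM with EIPA, against 393, 412, 425, 378 and 504 TPM with vehicle. Vehicle replicate 5 of Atp6v0b, the highest of its group, came just below the lowest EIPA library, so neither gene overlapped (log2 fold change 0.56 ± 0.06, limma adjusted p = 5.1e-07 for Atp6ap2; log2 fold change 0.42 ± 0.07, limma adjusted p = 4.0e-05 for Atp6v0b). Atp6v1f, a subunit of the V1 stalk, was at 484, 496, 477, 455 and 449 TPM with EIPA, against 353, 359, 362, 339.8 and 339 TPM with vehicle. Atp6v1a, the catalytic subunit, was at 183, 179, 182, 169.7 and 157 TPM with EIPA, against 142, 141, 136, 129.6 and 124 TPM with vehicle. Both were higher in every EIPA library (log2 fold change 0.43 ± 0.05, limma adjusted p = 7.4e-07 for Atp6v1f; log2 fold change 0.37 ± 0.06, limma adjusted p = 1.7e-05 for Atp6v1a). The V0 member with the highest level, the ring proteolipid Atp6v0c, was at 1034, 1093, 1115, 984 and 974 TPM with EIPA, against 931, 944, 963, 912 and 1008 TPM with vehicle. Its groups overlapped, and its call (log2 fold change 0.13 ± 0.05, limma adjusted p = 0.031) was lost under 8 of 30 other settings. The V1 member with the highest level, Atp6v1g1 of the peripheral stalk, was at 412, 413, 437, 478 and 437 TPM with EIPA, against 393, 389, 401, 412 and 373 TPM with vehicle, which only just separate, and was not called (log2 fold change 0.14 ± 0.06, limma adjusted p = 0.062). The calls of Atp6ap1, an accessory protein, and of Atp6v1h, which couples V1 to V0, were lost under 5 and 9 of 30 other settings.

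With EIPA, the median log2 fold change was 0.41 in the 16 genes with the 7-letter E-box, where 14 rose. It was 0.39 in the 30 tested genes with a promoter lacking it, where 22 rose and 1 fell. Of all tested genes 27.4% rose and 21.1% fell with EIPA, with a median of 0.02. At 0.2 mM against 4 mM glutamine in vehicle, 10 of the 16 genes with the form were called higher and 3 lower. Of the 30 without it, 15 were called higher and 12 lower, beside 45.4% and 27.9% of all genes. The medians there, relative to the median of all genes, were 0.11 with the form and 0.02 without it. In neither comparison was a test made between the genes with and without the form.

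**Figure D3:**
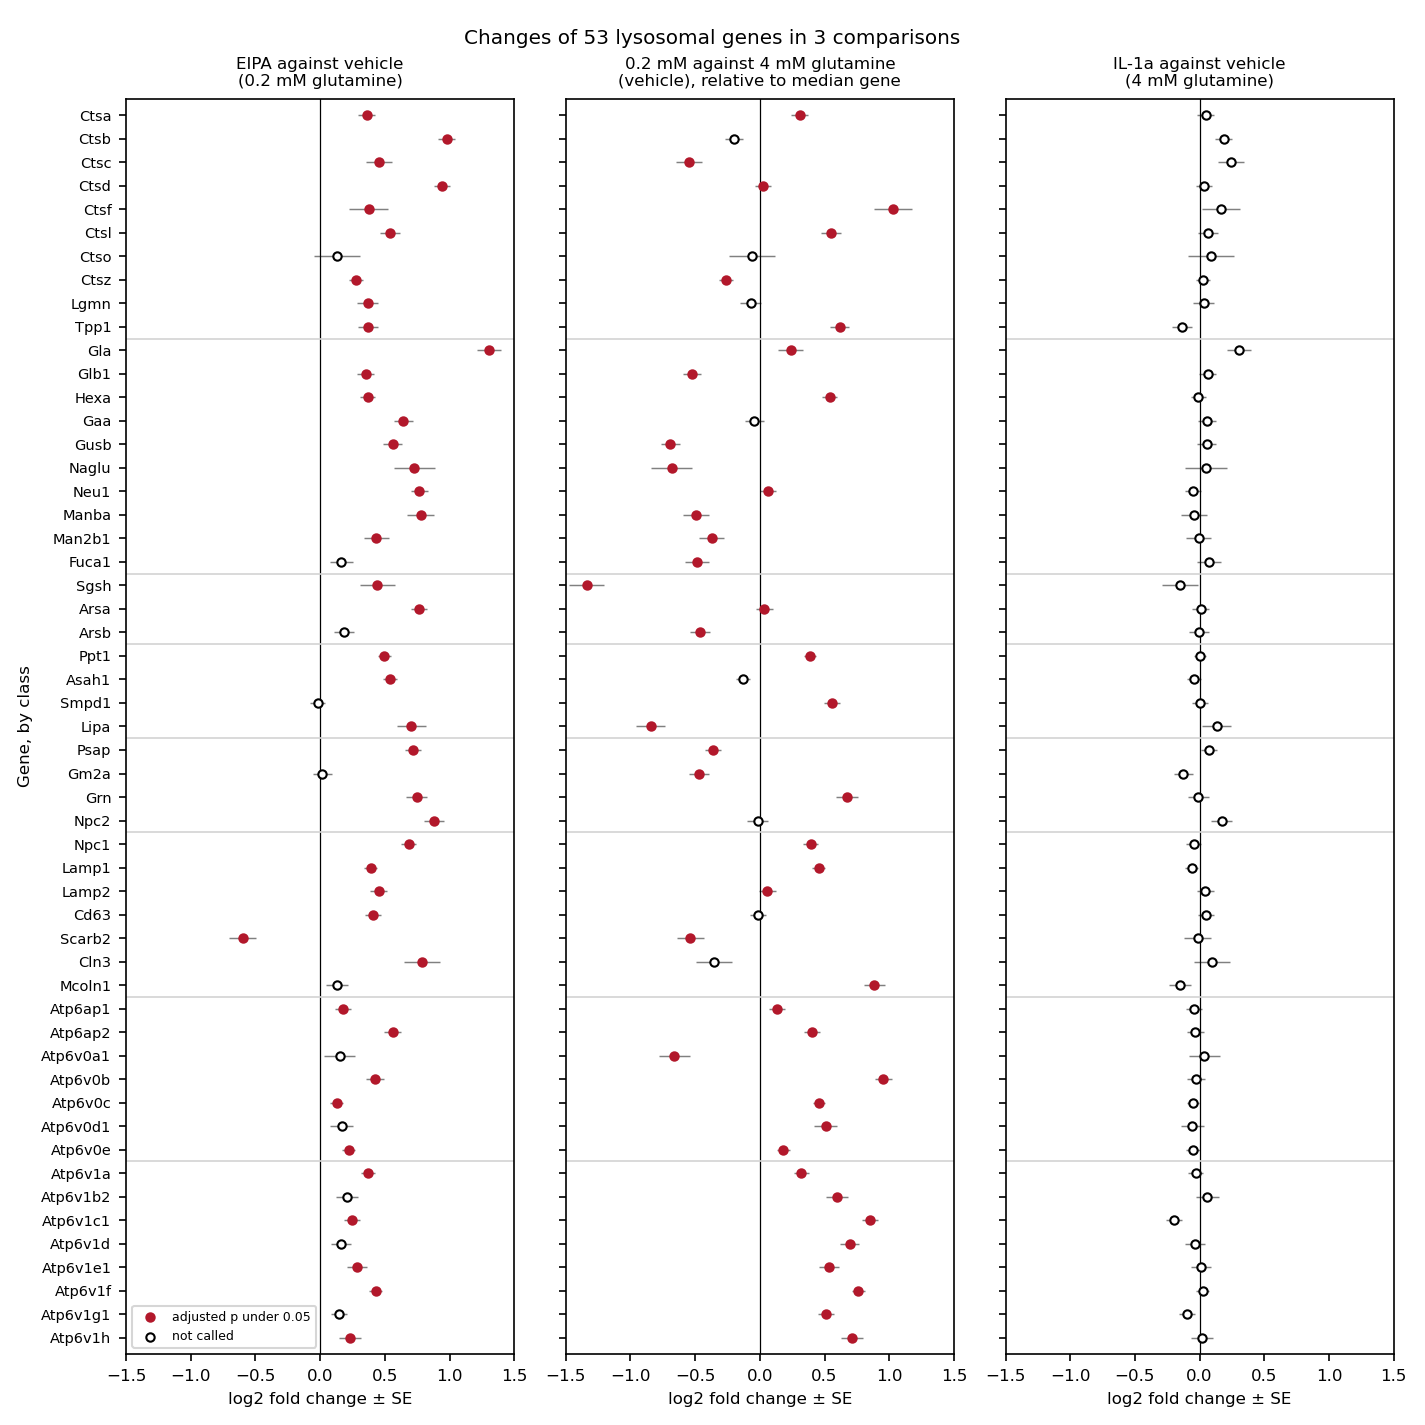
Log2 fold change ± SE of each of the 53 tested genes (rows, by class) with EIPA (left), at 0.2 mM against 4 mM glutamine in vehicle relative to the median gene (middle) and with IL-1a (right). Filled points were called by limma at an adjusted p under 0.05, of the unshifted change in the middle panel. With EIPA 41 genes lie right of 0 and are filled, in the middle panel the V-ATPase block is right of 0 except Atp6v0a1, and with IL-1a no point is filled.

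The vehicle libraries at 0.2 mM and 4 mM glutamine were compared to see what the low glutamine did by itself. They share the 0.2 mM vehicle libraries with the EIPA comparison. The median of all genes was 0.14 higher at 0.2 mM (log2), so changes are given relative to the median gene, while calls and p-values are those of the unshifted change. At low glutamine nearly all pump genes were higher, while hydrolases went both ways. Of the 53 genes 30 were called higher and 15 lower, beside 45.4% of all genes called higher, 27.9% called lower and 73.3% called in all. Under median-of-ratios scaling 25 were higher and 18 lower, while the shares of all genes just given are those without this scaling. All 15 V-ATPase genes were called, 14 higher and 1 lower (of these only Atp6ap1 lost its call, under median-of-ratios scaling), and none had overlapping groups, where 59.9% of all genes had none. Of 27 tested hydrolases, 11 were higher and 11 lower. The share of these called higher was near that of all genes, and their median change relative to the median gene was -0.07. Without the 3 libraries that stood apart, 30 members were higher and 13 lower, and the 2 calls lost were those of Ctsz and Man2b1.

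In the V-ATPase, the median change relative to the median gene was 0.51 over the 15 genes. Atp6v0b was at 393, 412, 425, 378 and 504 TPM at 0.2 mM, against 194, 192, 179, 210.4 and 209.5 TPM at 4 mM. Its groups lay far apart, with means of 422 ± 49.0 and 197 ± 13.1 TPM (SD, n = 5 each; 0.96 ± 0.07 relative to the median gene, limma adjusted p = 1.4e-11). Atp6v0d1, the subunit that links the ring to the stalk, was at 249, 245, 271, 226 and 324 TPM at 0.2 mM, against 165, 159.6, 151, 177 and 181 TPM at 4 mM, with 0.2 mM replicate 5 highest and no overlap (0.51 ± 0.09 relative to the median gene, limma adjusted p = 1.6e-06). Atp6v1c1, a stalk subunit involved in reversible assembly, was at 183, 193, 185, 168 and 195 TPM at 0.2 mM, against 94.8, 84.8, 96.1, 99.8 and 88.0 TPM at 4 mM. The lowest 0.2 mM library was above all 4 mM libraries by a wide margin (0.85 ± 0.06 relative to the median gene, limma adjusted p = 1.0e-11). Atp6v1f averaged 350.5 ± 10.6 TPM at 0.2 mM, against 186, 175, 179.6, 188 and 212 TPM in the 4 mM libraries, also far apart (0.76 ± 0.05 relative to the median gene, limma adjusted p = 2.6e-12). Atp6v0a1, a subunit of the proton path that has several isoforms, was the exception. It was at 32.3, 31.9, 33.1, 36.0 and 39.2 TPM at 0.2 mM, against 43.0, 42.2, 48.3, 51.4 and 68.7 TPM at 4 mM. The 4 mM replicate 5, one of the 3 libraries apart, was highest, and no library at 0.2 mM reached the 4 mM range (-0.66 ± 0.12 relative to the median gene, limma adjusted p = 5.6e-04). Its isoform Tcirg1, which is not among the 56 genes, was also lower, at 34.9 ± 4.25 TPM at 0.2 mM and 57.8 ± 4.74 TPM at 4 mM (-0.85 ± 0.09 relative to the median gene, limma adjusted p = 4.4e-07). The other tested isoform, Atp6v0a2, was at 32.7 ± 4.26 TPM at 0.2 mM and 32.5 ± 1.57 TPM at 4 mM and was not called (-0.14 ± 0.07 relative to the median gene, limma adjusted p = 0.99). Both isoforms were named after their values were seen. The genes of highest level in their sectors, Atp6v0c and Atp6v1g1, were at 618, 619, 605, 669 and 640.2 TPM and at 236, 238, 236, 264 and 285 TPM in the 4 mM libraries, all below the 0.2 mM libraries (0.46 ± 0.05 relative to the median gene, limma adjusted p = 4.1e-10 for Atp6v0c; 0.51 ± 0.06 relative to the median gene, limma adjusted p = 8.6e-09 for Atp6v1g1).

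Among the proteases, Ctsf and Tpp1 were the most raised at 0.2 mM. Ctsf, a cysteine cathepsin, was at 8.16, 10.3, 7.32, 9.13 and 6 TPM at 0.2 mM, against 3.11, 2.74, 3.29, 2.76 and 3.38 TPM at 4 mM. Tpp1, which clips tripeptides from protein ends, was at 154, 169, 177, 142 and 179 TPM at 0.2 mM, against 92.7, 94.8, 99.7, 93.8 and 103 TPM at 4 mM. Neither had overlapping groups (1.03 ± 0.15 relative to the median gene, limma adjusted p = 4.8e-07 for Ctsf; 0.62 ± 0.08 relative to the median gene, limma adjusted p = 2.0e-08 for Tpp1). Ctsc, a dipeptidyl peptidase that activates other proteases, was at 26.1, 19.3, 26.6, 23.2 and 27.1 TPM at 0.2 mM, against 30.9, 29.8, 31.2, 32.2 and 39.5 TPM at 4 mM, lower in every library (-0.55 ± 0.10 relative to the median gene, limma adjusted p = 9.9e-04). Ctsz, a carboxypeptidase, was at 127, 124, 133, 121 and 136 TPM at 0.2 mM, against 141, 139.5, 130.1, 141 and 148 TPM at 4 mM. These groups overlapped and the call (-0.26 ± 0.05 relative to the median gene, limma adjusted p = 0.039) was lost in 9 of 30 other settings. Ctsl was called higher (0.55 ± 0.08 relative to the median gene, limma adjusted p = 8.5e-08), at 452, 455, 437, 441 and 574 TPM in the 4 mM libraries, all below the 705 TPM of its lowest 0.2 mM library.

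Glycosidases were mostly lower at 0.2 mM: 6 of 10 were called lower and 3 higher, beside 27.9% of all genes called lower and 45.4% called higher. Gusb, beta-glucuronidase, was at 55.1, 54.5, 47.4, 51.1 and 41.1 TPM at 0.2 mM, against 77.1, 77.3, 70.5, 74.8 and 67.3 TPM at 4 mM. Naglu was at 18.1, 17.4, 18.6, 19.6 and 14.7 TPM at 0.2 mM, against 22.3, 23.7, 25.1, 27.4 and 33.5 TPM at 4 mM. In both genes 0.2 mM replicate 5 was the lowest library, and every 0.2 mM library was below the 4 mM ones (-0.69 ± 0.07 relative to the median gene, limma adjusted p = 7.3e-07 for Gusb; -0.68 ± 0.16 relative to the median gene, limma adjusted p = 0.0045 for Naglu). Hexa, the alpha subunit of beta-hexosaminidase, went up, at 155, 159, 162, 152 and 160.4 TPM at 0.2 mM, against 96.3, 102, 100.5, 94.4 and 99.0 TPM at 4 mM, without overlap (0.54 ± 0.06 relative to the median gene, limma adjusted p = 9.5e-10). Gla averaged 21.0 ± 1.51 TPM at 0.2 mM, against 14.3, 14.9, 15.1, 17.5 and 18.2 TPM in the 4 mM libraries, which were all lower (0.24 ± 0.09 relative to the median gene, limma adjusted p = 0.0013). Glb1, Manba, Man2b1 and Fuca1 made up the other lower calls, from -0.53 to -0.37 relative to the median gene, and the call of Man2b1 was lost in 8 of 30 other settings. Gaa, at 156, 161, 166, 152 and 161 TPM in the 4 mM libraries, was not called (-0.04 ± 0.07 relative to the median gene, limma adjusted p = 0.25).

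The sulfatase Sgsh had the largest fall of the 53 genes. It averaged 1.93 ± 0.313 TPM at 0.2 mM, against 4.69, 5.16, 6.41, 5.79 and 6.70 TPM in the 4 mM libraries. No library came near the other group (-1.34 ± 0.14 relative to the median gene, limma adjusted p = 1.0e-07). Arsb was at 27.5, 27.0, 25.0, 24.4 and 21.4 TPM at 0.2 mM, against 30.8, 32.7, 33.5, 28.7 and 32.1 TPM at 4 mM, and all 0.2 mM libraries were lower (-0.46 ± 0.08 relative to the median gene, limma adjusted p = 8.5e-04). Arsa was called higher (0.03 ± 0.07 relative to the median gene, limma adjusted p = 0.024), but its groups overlapped, with 44.5 ± 1.11 TPM at 0.2 mM (SD, n = 5), against 38.4, 37.8, 38.8, 39.1 and 43.3 TPM in the 4 mM libraries, and the call was lost under median-of-ratios scaling (limma adjusted p = 0.72).

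The lipid hydrolases split. Smpd1 was at 40.6, 44.9, 43.7, 41.7 and 46.4 TPM at 0.2 mM, against 27.2, 28.1, 28.1, 22.9 and 26.4 TPM at 4 mM. Ppt1 was at 65.8, 66.7, 63.9, 60.9 and 62.5 TPM at 0.2 mM, against 43.2, 43.5, 41.1, 44.0 and 48.9 TPM at 4 mM. Lipa averaged 25.3 ± 2.08 TPM at 0.2 mM, against 39.4, 40.6, 40.5, 40.4 and 48.9 TPM in the 4 mM libraries. Smpd1 and Ppt1 were thus higher and Lipa lower in every 0.2 mM library (0.56 ± 0.06 relative to the median gene, limma adjusted p = 1.6e-09 for Smpd1; 0.39 ± 0.05 relative to the median gene, limma adjusted p = 3.8e-09 for Ppt1; -0.84 ± 0.11 relative to the median gene, limma adjusted p = 8.2e-06 for Lipa). Asah1 averaged 128 ± 4.32 TPM at 0.2 mM, against 119, 128, 120.5, 130.3 and 139.8 TPM in the 4 mM libraries, with overlapping groups and no call (-0.13 ± 0.05 relative to the median gene, limma adjusted p = 0.96).

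Grn averaged 584 ± 49.0 TPM at 0.2 mM, against 316, 309.8, 311, 342 and 385 TPM in the 4 mM libraries, and was higher in each (0.67 ± 0.08 relative to the median gene, limma adjusted p = 1.8e-08). Psap and Gm2a went the other way. Psap averaged 565 ± 12.2 TPM at 0.2 mM, against 673, 667, 664, 627 and 675 TPM in the 4 mM libraries. Gm2a was at 17.3, 16.3, 16.1, 18.3 and 13.8 TPM at 0.2 mM, against 21.1, 20.2, 21.9, 20.9 and 19.98 TPM at 4 mM. Both were lower in every 0.2 mM library (-0.36 ± 0.06 relative to the median gene, limma adjusted p = 0.0023 for Psap; -0.47 ± 0.07 relative to the median gene, limma adjusted p = 4.0e-04 for Gm2a).

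Of the 7 membrane proteins, 4 were called higher and 1 lower, beside 45.4% of all genes called higher and 27.9% called lower. Mcoln1, or TRPML1, the cation channel that releases lysosomal calcium, was at 103, 116, 125, 110.2 and 127 TPM at 0.2 mM, against 59.7, 54.0, 45.5, 58.9 and 66.9 TPM at 4 mM. Lamp1 averaged 1198 ± 44.1 TPM at 0.2 mM, against 815, 808, 775, 810.5 and 765 TPM in the 4 mM libraries. Neither gene overlapped (0.89 ± 0.08 relative to the median gene, limma adjusted p = 7.6e-10 for Mcoln1; 0.45 ± 0.05 relative to the median gene, limma adjusted p = 1.5e-09 for Lamp1). Scarb2 averaged 102 ± 4.72 TPM at 0.2 mM, against 123, 129, 127, 144 and 155 TPM in the 4 mM libraries, and was lower throughout (-0.54 ± 0.11 relative to the median gene, limma adjusted p = 0.0022). Npc1 was called higher (0.39 ± 0.06 relative to the median gene, limma adjusted p = 9.0e-08), at 28.0 to 28.7 TPM in the 4 mM libraries. Lamp2 was called as well (0.06 relative to the median gene), a call lost under median-of-ratios scaling (limma adjusted p = 0.47), Cd63 was not (-0.01 relative to the median gene, limma adjusted p = 0.078), and Cln3 was not (-0.35 ± 0.14 relative to the median gene, limma adjusted p = 0.17).

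The 2 comparisons share the 0.2 mM vehicle libraries, so their calls are not independent, and the group means of a few genes, chosen after their values were seen, are set side by side. Lipa averaged 41.7 ± 2.08 TPM with EIPA and 25.3 ± 2.08 TPM with vehicle at 0.2 mM, and 42.0 ± 3.92 TPM in the 4 mM vehicle group (SD, n = 5 each). Gusb averaged 73.9 ± 7.23 TPM with EIPA and 49.8 ± 5.75 TPM with vehicle at 0.2 mM, and 73.4 ± 4.38 TPM in the 4 mM vehicle group. In these 2 genes the EIPA mean lay within 1 SD of the 4 mM vehicle mean. Psap averaged 930.3 ± 55.6 TPM with EIPA, 565 ± 12.2 TPM with vehicle at 0.2 mM and 661 ± 19.5 TPM in the 4 mM vehicle group. Smpd1 averaged 42.9 ± 2.83 TPM with EIPA, 43.5 ± 2.34 TPM with vehicle at 0.2 mM and 26.5 ± 2.14 TPM in the 4 mM vehicle group. Scarb2 averaged 67.3 ± 7.26 TPM with EIPA, 102 ± 4.72 TPM with vehicle at 0.2 mM and 135 ± 13.6 TPM in the 4 mM vehicle group, and was the one gene called lower in both comparisons. The group mean was highest with EIPA in 42 of the 53 genes, in the 0.2 mM vehicle group for Smpd1, with IL-1a for 7 genes, among them Lipa, Scarb2 and Atp6v0a1, and in the 4 mM vehicle group for Sgsh, Arsb and Gm2a. This ranking was not counted over all genes, so no background share stands beside these counts.

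**Figure D4:**
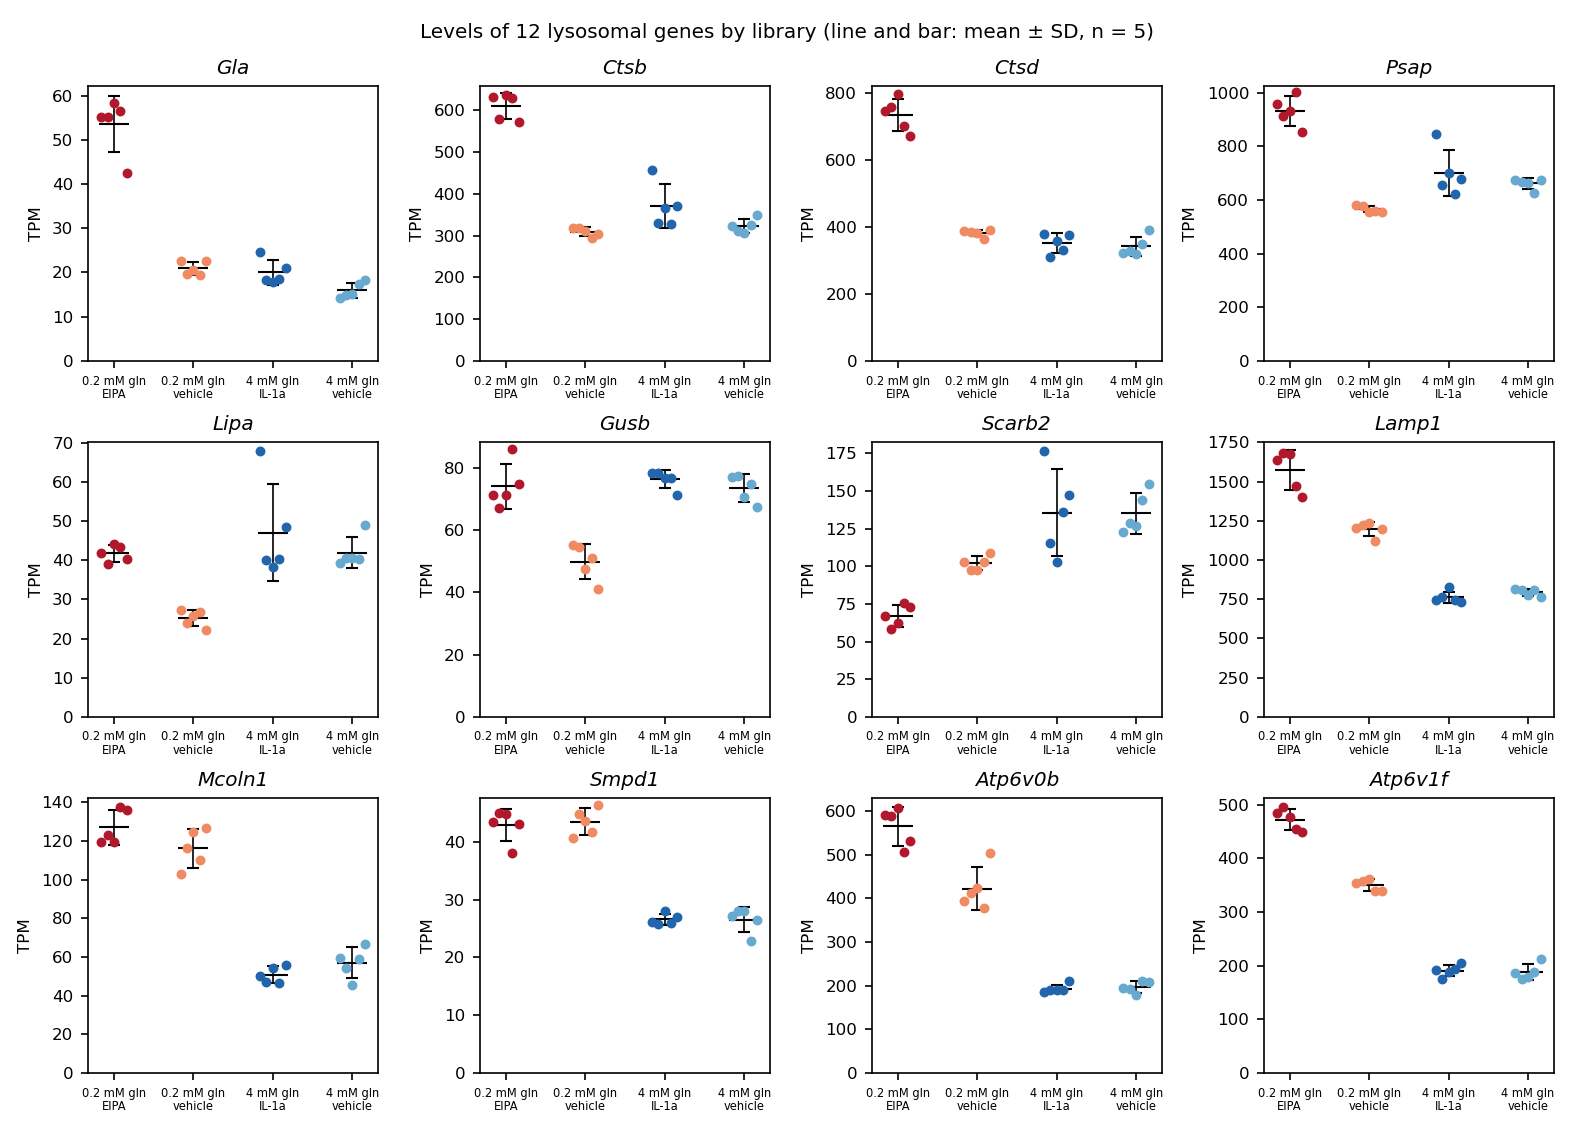
TPM of 12 lysosomal genes in each library (points) of the 4 groups, with the mean ± SD (n = 5) as line and bar; each y axis starts at 0. Gla, Ctsb and Ctsd stand out with EIPA, while Lipa, Gusb and Psap are lowest in the 0.2 mM vehicle libraries. Smpd1 and Mcoln1 follow the glutamine level with overlapping EIPA and vehicle libraries, and Scarb2 is lowest with EIPA.

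Summed over the 56 genes, the lysosomal transcripts took 1.502% ± 0.071 of TPM with EIPA and 1.10% ± 0.029 with vehicle at 0.2 mM, and 0.842% ± 0.054 with IL-1a and 0.833% ± 0.032 in the 4 mM vehicle group (SD, n = 5 each). The 30 hydrolases summed to 4797 ± 192 TPM with EIPA, 3159 ± 85.2 TPM with vehicle at 0.2 mM, 2770 ± 279 TPM with IL-1a and 2658 ± 153 TPM in the 4 mM vehicle group. The 15 V-ATPase genes summed to 4794 ± 291 TPM with EIPA, 4027 ± 187 TPM with vehicle at 0.2 mM, 2494 ± 93.5 TPM with IL-1a and 2564 ± 107 TPM in the 4 mM vehicle group. The V-ATPase sum of the 0.2 mM vehicle group lay nearer to that of the EIPA group, and the hydrolase sum nearer to those of the 4 mM groups. These sums are given as a description, with no test.

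**Figure D5:**
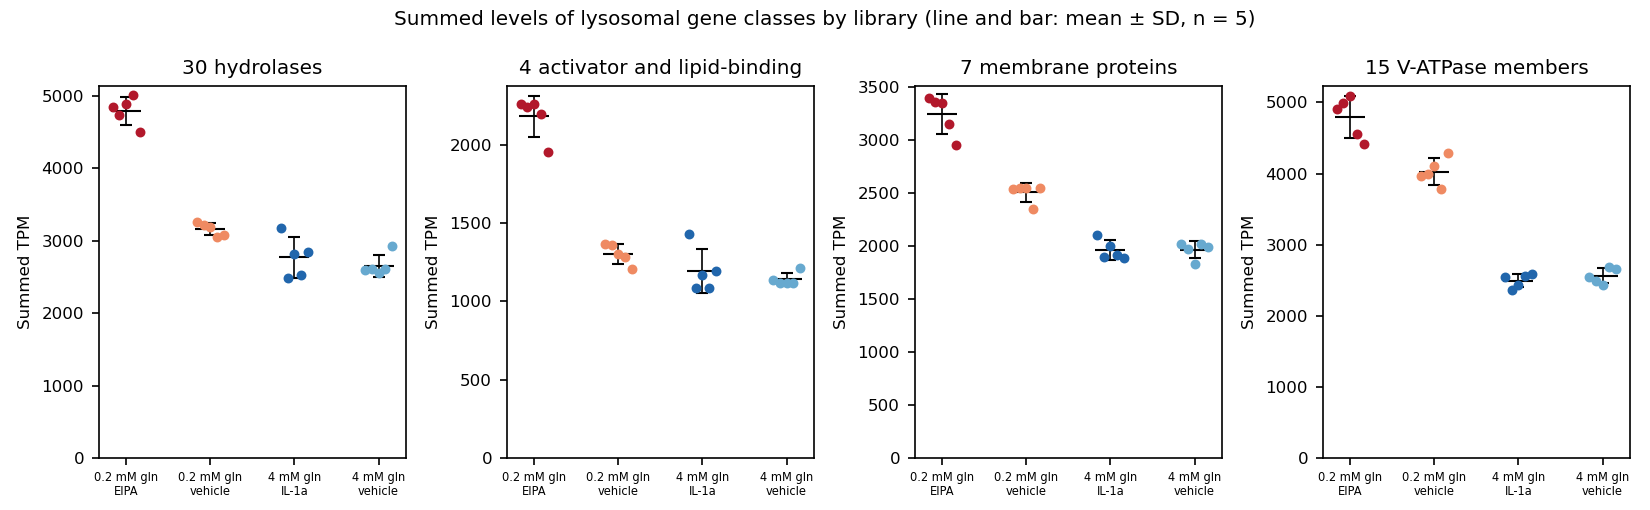
Summed TPM of the 30 hydrolases, the 4 activator and lipid-binding proteins, the 7 membrane proteins and the 15 V-ATPase members in each library (points), with the mean ± SD (n = 5) as line and bar; y axes start at 0. Hydrolases and activators are set apart mainly in the EIPA group, while the V-ATPase sum of both 0.2 mM groups, at least 3785 TPM, is above that of both 4 mM groups, at most 2685 TPM.

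IL-1a was set against vehicle, both at 4 mM glutamine, where the cytokine serves as a known inflammatory stimulus of CAFs; this comparison shares the 4 mM vehicle libraries with the glutamine one. No lysosomal gene was called, beside 0.283% of all genes (limma). The smallest adjusted p among the 53 was 0.38, and limma was the only tool run. At an unadjusted p under 0.05 there were 5 of 53, beside 6.02% of all genes: Ctsb, Ctsc, Gla, Npc2 and Atp6v1c1. None of the 53 had groups without overlap, beside 1.38% of all genes. Log2 fold changes ran from -0.20 to 0.31 with a median of 0.01. Without the 3 libraries that stood apart there was still no call.

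The 2 ends of that range were Gla and Atp6v1c1. Gla was at 24.6, 18.2, 17.9, 18.6 and 20.9 TPM with IL-1a, against 14.3, 14.9, 15.1, 17.5 and 18.2 TPM with vehicle. IL-1a replicate 1 was highest and the lowest IL-1a library lay within the vehicle range (log2 fold change 0.31 ± 0.09, limma adjusted p = 0.39). Atp6v1c1 was at 79.2, 77.1, 80.9, 86.8 and 79.0 TPM with IL-1a, against 94.8, 84.8, 96.1, 99.8 and 88.0 TPM with vehicle, and one IL-1a library overlapped (log2 fold change -0.20 ± 0.06, limma adjusted p = 0.38). Ctsb was at 457, 331, 367, 327 and 371 TPM with IL-1a, against 323, 312, 307, 326 and 350.3 TPM with vehicle. Npc2 was at 180.2, 130.3, 134, 137 and 136 TPM with IL-1a, against 128, 122, 122, 129 and 133 TPM with vehicle. For both, replicate 1 was the highest IL-1a library by a wide gap, and the groups overlapped (log2 fold change 0.19 ± 0.07, limma adjusted p = 0.56 for Ctsb; log2 fold change 0.17 ± 0.08, limma adjusted p = 0.79 for Npc2). Ctsc was at 43.8, 32.8, 35.0, 37.6 and 45.9 TPM with IL-1a, against 30.9, 29.8, 31.2, 32.2 and 39.5 TPM with vehicle, where replicate 5 was high in both groups (log2 fold change 0.24 ± 0.10, limma adjusted p = 0.69). Among the most abundant genes, Lamp1 was at 745, 764, 825, 743 and 732 TPM with IL-1a and averaged 795 ± 22.8 TPM with vehicle, and Ctsl was at 557, 432, 522, 429 and 529 TPM with IL-1a and averaged 472 ± 57.4 TPM with vehicle, both with overlapping libraries. The genes of highest level in the other classes overlapped too. Gaa was at 201, 150.2, 186, 141 and 158 TPM with IL-1a, against 156, 161, 166, 152 and 161 TPM with vehicle. Arsa was at 44.8, 34.8, 40.8, 35.9 and 43.1 TPM with IL-1a, against 38.4, 37.8, 38.8, 39.1 and 43.3 TPM with vehicle. Asah1 was at 122, 121, 122, 121 and 131 TPM with IL-1a, against 119, 128, 120.5, 130.3 and 139.8 TPM with vehicle. None of these was called, and the changes ran from -0.05 to 0.06 (log2). Psap was at 845, 656, 699, 620.4 and 679 TPM with IL-1a, against 673, 667, 664, 627 and 675 TPM with vehicle. Atp6v0c was at 607, 571, 586, 644 and 634 TPM with IL-1a, against 618, 619, 605, 669 and 640.2 TPM with vehicle. Atp6v1g1 was at 215, 218, 234, 240.5 and 267 TPM with IL-1a, against 236, 238, 236, 264 and 285 TPM with vehicle. These were not called either, with log2 fold changes of 0.07 ± 0.06 for Psap, -0.05 ± 0.05 for Atp6v0c and -0.10 ± 0.06 for Atp6v1g1.

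The EIPA and IL-1a responses share no library but were measured at different glutamine levels. Tested against each other in the same model, they differed in 38 of the 53 genes, 37 with a higher response to EIPA and 1, Scarb2, with a lower one (difference -0.58 ± 0.15, limma adjusted p = 0.0066). Of all genes 28.9% differed, 16.3% with a higher and 12.6% with a lower response to EIPA. Gla (difference 1.0 ± 0.13, limma adjusted p = 1.3e-05), Ctsd (difference 0.90 ± 0.09, limma adjusted p = 2.6e-07), Neu1 (difference 0.82 ± 0.09, limma adjusted p = 1.3e-06) and Manba (difference 0.82 ± 0.14, limma adjusted p = 2.4e-04) had the largest differences. By class these were 7 of 10 proteases, 9 of 10 glycosidases, 2 of 3 sulfatases, 3 of 4 lipid hydrolases, 3 of 4 activator and lipid-binding proteins, 5 higher and 1 lower of 7 membrane proteins, and 8 of 15 V-ATPase genes. Ctsc and Ctsf, which were called with EIPA, were not called in this test (difference 0.21 ± 0.14, limma adjusted p = 0.28 for Ctsc; difference 0.21 ± 0.21, limma adjusted p = 0.49 for Ctsf), nor were Atp6ap1, Atp6v1e1 and Atp6v1h. Atp6v0c and Atp6v1g1 were called, but the calls were lost under 21 and 18 of 29 other settings. Among the hydrolases, the calls of Lgmn, Naglu and Glb1 were lost under 9, 7 and 4 of 29 settings, and that of Sgsh under 2 of 28.

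Lists of other lysosomal genes outside the 56 were counted in the same fit. Of 31 tested other hydrolases 15 rose and 2 fell with EIPA, with a median log2 fold change of 0.19, and of 30 other lysosomal membrane proteins 16 rose and 3 fell, with a median of 0.23. Of 13 other V-ATPase subunits and assembly factors 7 rose and 2 fell (median 0.22), and of 21 genes that sort enzymes to the lysosome 8 rose and 2 fell (median 0.08), beside 27.4% of all genes that rose and 21.1% that fell. Both mannose 6-phosphate receptors rose with EIPA: Igf2r by 0.40 ± 0.07 (limma adjusted p = 1.7e-04) and M6pr by 0.32 ± 0.04 (limma adjusted p = 2.3e-06). At 0.2 mM against 4 mM glutamine, 15 of the other hydrolases were higher and 6 lower, 15 of the membrane proteins were higher and 8 lower, 8 of the V-ATPase genes were higher and 3 lower, and 12 of the sorting genes were higher and 7 lower, beside 45.4% of all genes called higher and 27.9% lower; the shares of hydrolases and membrane proteins called higher are near that background. The sorting receptors above and the examples that follow were chosen after their values were seen. Ctns, the cystine exporter of the lysosome, was at 85.7 ± 11.6 TPM with EIPA and 51.1 ± 3.08 TPM with vehicle at 0.2 mM, and 14.6 ± 2.44 TPM in the 4 mM vehicle group. It rose with EIPA by 0.73 ± 0.10 (limma adjusted p = 1.0e-05) and at 0.2 mM glutamine by 1.62 ± 0.10 relative to the median gene (limma adjusted p = 6.4e-12). Epdr1, a lysosomal lipid-binding protein, was lower in both (-0.63 ± 0.07, limma adjusted p = 1.8e-07, with EIPA; -0.40 ± 0.07 relative to the median gene, limma adjusted p = 0.0013, at 0.2 mM). With IL-1a no gene of these lists was called.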

How the data were processed

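The labels put 20 libraries of murine CAFs in 4 groups of 5; all were used. Polyadenylated RNA was sequenced from both ends, per the labels' protocols, and RSEM and mm10 are named in the submitters' processing notes without versions. For the aligner and the annotation release, the sources used here give no name. The authors deposited TPM with 2 decimals for 32285 genes. Each library summed to between 999999.47 and 1000000.84 TPM, so depth is unknown, no counting interval can be given, and genes of few TPM may rest on few reads.

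Values were analysed as log2(TPM + 1), which understates fold changes of low genes, with limma 3.58.1 in R 4.3.3, in one model of the 4 groups with a variance trend and no covariates. A gene was tested if 5 or more libraries held it at 1 TPM or above (12350 genes); Benjamini-Hochberg adjustment ran over all of these, with calls under 0.05. The fit was tested on simulated data. Numbers after ± are the SE for log2 changes and the SD for levels (n = 5 in each group). The members and all lists were chosen with earlier results of these data known. In each comparison and class, the 2 called genes with the largest positive and the 2 with the largest negative change, are given with values in every library of the comparison, or, for 0.2 mM vehicle values already listed, by their mean, and the gene of highest mean TPM in each class likewise in all comparisons; other members are given by counts and ranges, except where a call, a change that depends on the settings or a pattern is described, and those were chosen after their values were seen. Positions come from GENCODE M21 (GRCm38) and promoters from RefSeq (GRCm38.p6); a motif was searched as exact letters on both strands. Alternatives were a pseudocount of 0.1, no filter, a mean of at least 5 TPM, median-of-ratios and quantile scaling, leaving out mitochondrially encoded genes, a fit of only the groups compared, no variance trend, a replicate block and leaving out each library in turn; leaving out together the 3 libraries that stood apart was added after seeing the data. Python 3.11.15 with pandas 2.3.3 and matplotlib 3.10.9 was used for summaries and figures.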

Additional observations from a re-analysis of the deposited data

Results flagged for a closer look

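Within groups of 5 libraries, a library was singled out when its gap to the nearest other library exceeded 0.71 of the group's range (Dixon's critical value). This was applied to the 38 genes given by library and 5 summed levels, 172 groups in all, and 23 were singled out, where chance gives about 1 in 20 groups, or 8.6.

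The 4 mM vehicle replicate 5, one of the 3 libraries that stood apart, was highest for Ctsl (574 TPM), Lipa (48.9 TPM), Arsa (43.3 TPM) and Ctsc (39.5 TPM), for the summed hydrolases (2928 TPM) and for the summed activator and lipid-binding proteins (1213 TPM). IL-1a replicate 1, also set apart, was highest for Npc2 (180.2 TPM), Atp6v1a (106 TPM), Npc1 (31.4 TPM) and Gm2a (21.1 TPM). IL-1a replicate 5, the third such library, was highest for Atp6v0b (210.02 TPM) and Asah1 (131 TPM) and lowest for Gusb (71.3 TPM). Without these 3 libraries no member was called with IL-1a, as with them.

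EIPA replicate 5 was lowest for Gla (42.4 TPM), Npc1 (64.1 TPM) and the summed activator and lipid-binding proteins (1951 TPM), and EIPA replicate 4 for Smpd1 (38.1 TPM). Among the 0.2 mM vehicle libraries, replicate 4 was lowest for Ctsd (363 TPM), for the sum of all 56 genes (10480 TPM) and for the summed membrane proteins (2355 TPM), and replicate 5 was highest for Npc1 (48.5 TPM). Among the 4 mM vehicle libraries, replicate 4 was lowest for Psap (627 TPM) and replicate 3 for the summed membrane proteins (1832 TPM).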

How the results depend on the processing

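The counts of called members stayed within 1.5 times their main value in all 30 settings (29 for the difference between responses). Leaving out 1 library at a time gave 38 to 44 called members with EIPA, 41 to 45 between the glutamine levels, 0 with IL-1a and 32 to 40 for the difference; the other settings gave 38 to 45, 43 to 46, 0 and 33 to 38. Scarb2 stayed the single gene called lower with EIPA. No called change of a member changed sign, while changes near 0 that were not called did, such as those of Smpd1 and Gm2a with EIPA (in 2 and 6 settings) and of Gaa and Cd63 between the glutamine levels (in 1 each). Between the glutamine levels, calls were lost by Ctsz in 9 settings, Man2b1 in 8, Ctsd in 4, Arsa in 3, Neu1 in 2, and Lamp2 and Atp6ap1 in 1. Calls were gained there by Cd63 in 4 settings and Cln3 in 2. Ctsb and Asah1 gained a call under median-of-ratios scaling, and Gaa and Npc2 with only the groups compared in the fit. Other members of small change also crossed the threshold: with EIPA, Ctsf, Atp6ap1, Atp6v0c and Atp6v1h lost and Arsb, Atp6v0d1, Atp6v1b2, Atp6v1d and Atp6v1g1 gained a call in some setting; the cause was not tested. Over all genes, the main IL-1a calls of 32 higher and 3 lower ranged down to 18 and 1 with only those groups in the fit, and up to 8 lower with the replicate block.

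With the replicate block, 43 members were called with EIPA (42 higher), 46 between the glutamine levels (31 higher), 0 with IL-1a and 38 for the difference. Same-numbered libraries' deviations correlated at 0.062 to 0.32 in the EIPA comparison, -0.28 to 0.601 in the IL-1a comparison and 0.049 to 0.17 between the glutamine levels. Not every pair was over 0.1, and the labels name no shared culture or day, so the numbers were not taken to pair the samples. A library matched its own number best for 4, 2 and 4 of 5 numbers in these comparisons, which is a hint from the data and not the design. Depth is unknown, so it cannot be said how many reads stand behind genes of few TPM, such as Sgsh, Cln3 and Ctso.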

Other observations

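The transcription factors that act on lysosomal promoters and the amino acid sensing genes of the lysosomal surface were read from a list of 15, of which 14 were tested. With EIPA 7 rose and 1, Tfeb, fell, and at 0.2 mM against 4 mM glutamine 10 were called higher and 2 lower; with IL-1a none was called. Of all tested genes, 27.4% rose and 21.1% fell with EIPA, and 45.4% were higher and 27.9% lower at 0.2 mM glutamine, and the counts of this paragraph and the next are to be read against these shares. Tfeb was at 9.19 ± 1.06 TPM with EIPA and 13.0 ± 2.01 TPM with vehicle (SD, n = 5 each), a log2 fold change of -0.45 ± 0.10 (limma adjusted p = 0.0011). Tfe3, its relative, was at 72.8 ± 2.22 TPM with EIPA and 68.1 ± 6.95 TPM with vehicle, and was not called. Rragd, a Rag GTPase of the mTORC1 machinery, had the widest range. It was at 14.01 ± 2.16 TPM with EIPA and 7.06 ± 1.16 TPM with vehicle at 0.2 mM (0.90 ± 0.11, limma adjusted p = 1.3e-06), and at 0.30 ± 0.119 TPM with IL-1a and 0.228 ± 0.033 TPM with vehicle at 4 mM. Between the glutamine levels its change was 2.57 ± 0.11 relative to the median gene (limma adjusted p = 2.3e-14). Flcn, which acts on the Rag GTPases, was at 89.9 ± 3.93 TPM at 0.2 mM and 36.7 ± 3.29 TPM at 4 mM in vehicle (1.14 ± 0.07 relative to the median gene, limma adjusted p = 3.6e-12).

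Of 10 inhibitors of cathepsins, 6 were tested. With EIPA 4 rose and 1 fell, and at 0.2 mM glutamine 2 were called higher and 3 lower. Cstb, which inhibits cysteine cathepsins in the cytosol, was at 821 ± 65.0 TPM with EIPA and 552 ± 27.1 TPM with vehicle (0.57 ± 0.06, limma adjusted p = 7.0e-08). Genes named in these paragraphs were chosen after their values were seen.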
